A study of Mus musculus with 2 samples.

Results

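The genes described here mark the chambers of the heart. They are 7 of the 25235 genes listed in either library, chosen by name: Myl7, Myl4, Sln and Bmp10 for the atria, and Myl2, Myl3 and Irx4 for the ventricles. All 7 were listed in both libraries.

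The study profiled nuclei of frozen hearts from female F1 mice by single-nucleus RNA-seq to ask how expression from the inactive X chromosome varies with age. There was 1 library per age, an adult heart of 9 weeks and an aged heart of 78 weeks. Both mice had a C57BL/6J (BL6) mother and a CAST/EiJ (CAST) father. Their label fields differ on genotype: one names a plain C57BL/6JxCAST/EiJ hybrid, which the study's methods call wild type, and the breed field names a cross with an Xist deletion on the BL6 side. The methods give 1 replicate per age. The deposited values pool all nuclei of a library in which the BL6 X chromosome was the active one (BL6 Xa), without cell types, and count only reads that overlap a SNP between the parental strains. No dissection of the chambers was stated, so the share of atrial tissue that entered each library is unknown. The adult library had 24015 listed genes with 9747535 SNP-overlapping reads in all, and the aged library 22691 genes with 5805807. Levels are given in RPM, reads scaled by the library's total, and the allelic ratio is the BL6 share of a gene's reads, so an allelic ratio above the autosomal share of 0.534 (adult) or 0.538 (aged) lies towards BL6.

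Atrial and ventricular cardiomyocytes build their thick filaments from different light chains. Each myosin head carries a regulatory and an essential light chain: MYL7 (regulatory) and MYL4 (essential) are the atrial forms, and MYL2 (regulatory) and MYL3 (essential) the ventricular forms. Sarcolipin, the product of Sln, is a small membrane protein that inhibits the calcium pump of the sarcoplasmic reticulum and is made mainly in atria of the mouse heart. BMP10 is a ligand of the BMP family secreted in the adult mainly by the right atrium, and IRX4 is an Iroquois homeodomain transcription factor restricted to ventricular myocardium.

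The genes lie on 5 autosomes. In GRCm38 coordinates, Myl7 was listed at chr11:5896637-5898782 and Myl4 at chr11:104550529-104587219, the former on the minus strand. Sln was listed at chr9:53850251-53853849 and Myl3 on the same chromosome at chr9:110763681-110769794. Bmp10 lay at chr6:87428994-87434512, Myl2 at chr5:122100904-122113398 and Irx4 at chr13:73259590-73269622, all on the plus strand. These intervals span whole genes, introns included. The methods give the pooled nuclei the SNP set of whole organs, and limit SNPs to exons only for sorted cardiac cell types. That set thus did not leave out intronic SNPs, but how many of the counted reads were intronic is not given. In length the intervals ran from 2.15 kb (Myl7) to 36.7 kb (Myl4), and the number of usable SNPs differs by gene. Levels are therefore compared between libraries and never between genes. A second listed gene overlapped Myl4 and Myl2. Cdc27 shares 92 bases with Myl4 at its start and Gm11665 shares 5410 bases with it. Ccdc63 shares 5347 bases with Myl2. Cdc27 had 619 adult and 582 aged reads, Gm11665 3 and 1, and Ccdc63 37 and 19. Use of strand in the counting was not stated, so reads in the shared bases of Myl4 and Myl2 cannot be told apart from those of these neighbours.

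Upstream sequence is shown for the members whose RefSeq promoter entry (GRCm38.p6) starts within 3 bases of the deposited locus start, because an entry further away may belong to another start site. An entry was found for 6 of the 7 members, Sln being the exception. The 150 bases before the start were searched on both strands for GATAA (bound by GATA factors), CATTCC (bound by TEAD factors), TATAAA and the CArG box, the motif of serum response factor. Capitals mark matches. The sequences read towards the start site, from chr11:5898783-5898932 (minus strand) for Myl7, chr9:110763528-110763677 (plus strand) for Myl3 and chr6:87428844-87428993 (plus strand) for Bmp10.
Myl7: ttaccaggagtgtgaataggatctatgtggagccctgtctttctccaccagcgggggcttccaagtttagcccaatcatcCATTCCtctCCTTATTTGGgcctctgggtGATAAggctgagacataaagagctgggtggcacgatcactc
Myl3: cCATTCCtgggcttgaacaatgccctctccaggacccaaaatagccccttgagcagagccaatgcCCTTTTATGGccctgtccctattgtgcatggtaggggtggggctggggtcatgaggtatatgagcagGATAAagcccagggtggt
Bmp10: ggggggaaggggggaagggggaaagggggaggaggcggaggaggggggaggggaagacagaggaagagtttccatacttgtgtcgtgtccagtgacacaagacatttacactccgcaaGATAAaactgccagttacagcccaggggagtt

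The atrial Myl7 and the ventricular Myl3 held the same 3 motifs in the same order. In Myl7, CATTCC lay 70 to 65 bases before the start, the CArG box 61 to 52 and GATAA 41 to 37. In Myl3, the matches lay at 149 to 144, 85 to 76 and 18 to 14. Among 32851 mouse promoter entries of the same window, 0.916% held the CArG box, 13.3% GATAA, 7.59% CATTCC and 7.57% TATAAA. The 3 motifs found in Myl7 and Myl3 occurred together in 3 entries (0.00913%), a combination counted after both sequences had been seen. Myl7 and Myl3 themselves are among these 3 entries. Whether the number exceeds what the rates of the single motifs would give was not tested, so nothing is read from its rarity. Bmp10 held GATAA only, at 32 to 28 bases. The windows of Myl4, Myl2 (2 entries) and Irx4 held none of the 4 motifs, and their entries start 134 to 8180 bases from the deposited locus start. A match is a string of letters and not a measured binding site.

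Since each age had a single library, the ages could not be tested against each other, and every interval below covers counting error only: exact Poisson for levels, exact conditional for ratios, Clopper-Pearson for allelic ratios and Newcombe for differences in allelic ratio, all at 95%. How far 2 hearts of one age would differ is unknown. In pooled nuclei, fewer cells of a type and less RNA per cell cannot be told apart.

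The 4 atrial genes had fewer scaled reads in the aged than in the adult library, although Myl4 turned to slightly higher when reads were scaled to pan-cardiomyocyte genes (log2 fold of 0.02) or when only CAST reads were used (0.01). The regulatory light chain gene Myl7 had 38 reads in the adult library against 10 in the aged one, or 3.90 RPM (2.76–5.35) and 1.72 RPM (0.826–3.17). This was 2.26-fold lower in the aged library (1.11–5.09). Its intervals overlapped between the libraries, since both counts were small.

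Myl4, the essential light chain gene, carried most of the atrial reads. It had 895 adult and 471 aged reads, or 91.8 RPM (85.9–98.0) and 81.1 RPM (74.0–88.8). The aged to adult ratio was 0.884 (0.789–0.989), the smallest atrial difference.

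Sln stood at 183 reads in the adult heart and 72 in the aged heart, or 18.8 RPM (16.2–21.7) and 12.4 RPM (9.70–15.6). Its intervals did not overlap, and the level was 1.51-fold lower in the aged library, just past the 1.5-fold threshold used for counting.

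Bmp10 differed most. It was seen in 29 adult reads but in 1 aged read, or 2.98 RPM (1.99–4.27) and 0.172 RPM (0.00436–0.960), with a ratio of 0.0579 (0.00142–0.349). At the aged depth a count of 0 allows up to 0.517 RPM (3 reads), and the aged level lies below that limit. Among the 12390 autosomal genes with 20 or more reads in both libraries, which Bmp10 and Myl7 are not part of, Sln lay at percentile 11.4 and Myl4 at percentile 26.0 of the folds, counted from the lowest.

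The 3 ventricular genes had more scaled reads in the aged library, although Myl3 turned to slightly lower on the median-of-ratios scale (log2 fold of -0.02) and the interval of Irx4 included no difference. Myl2, the regulatory light chain gene, had 1009 adult and 1083 aged reads, or 104 RPM (97.2–110) and 187 RPM (176–198), a ratio of 1.80 (1.65–1.97). It was higher in raw reads too, in the library with fewer reads in all.

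Myl3, the essential light chain gene, had 2203 adult and 1503 aged reads. Its level was 226 RPM (217–236) in the adult library against 259 RPM (246–272) in the aged one, a ratio of 1.15 (1.07–1.22). This lay close to the median autosomal gene, whose ratio was 1.17.

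Irx4 had 22 and 20 reads, or 2.26 RPM (1.41–3.42) and 3.44 RPM (2.10–5.32). The ratio of 1.53 (0.790–2.93) does not separate the libraries at this depth.

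**Figure D1:**
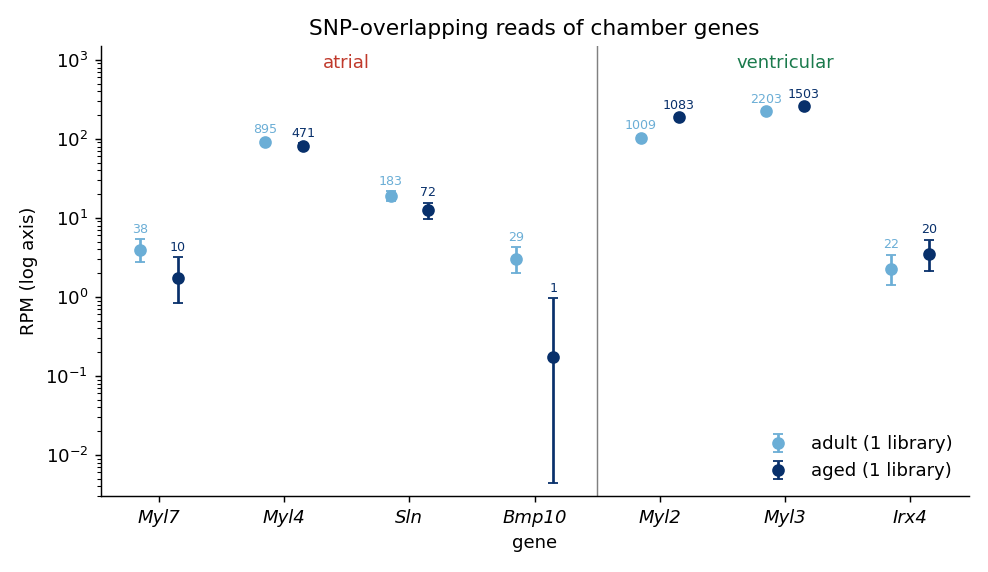
Reads scaled by the library's total of SNP-overlapping reads (RPM, log axis) of the 7 chamber genes in the adult (light blue) and aged (dark blue) library, with exact Poisson 95% intervals and the read count above each point. Bmp10 has 29 reads and 1, while Myl2 has 1009 and 1083 reads and stands higher in RPM in the aged library.

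The 1.5-fold counts were set beside those of all autosomal genes. Of the 5 members with 20 or more reads in both libraries, Myl2 and Irx4 were higher in the aged library by that fold, where 28.3% of 12390 genes were, and Sln was lower, where 11.7% of the genes were. Myl4 and Myl3 lay between the thresholds. Both Sln and Irx4 lay close to the fold: Sln no longer passed it on the pan-cardiomyocyte scale (log2 fold of -0.40) and with CAST reads (-0.50), nor did Irx4 on the median of ratios (0.39), on the pan-cardiomyocyte scale without Ttn (0.53) and with CAST reads (0.33). Myl7 and Bmp10 did not reach the minimum in the aged library, and a minimum in both libraries removes genes that are low in one. With the minimum in either library all 7 entered: 3 were lower (Myl7, Sln and Bmp10), against 17.1% of genes, and 2 were higher (Myl2 and Irx4), against 27.1%. Myl7 and Bmp10 entered only through the adult library, where they are high, so that such a minimum favours their being lower, and the count of 3 is a description only. With BL6 reads alone Myl7 (log2 fold of -0.45) did not pass the fold. The median autosomal gene with the minimum in both libraries was itself higher in the aged library, by 0.22 on the log2 scale, with quartiles at -0.20 and 0.65. Relative to that median, Myl4 and Sln lay lower and Myl2 and Irx4 higher, while Myl3 (log2 fold of 0.20) lay at it.

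**Figure D2:**
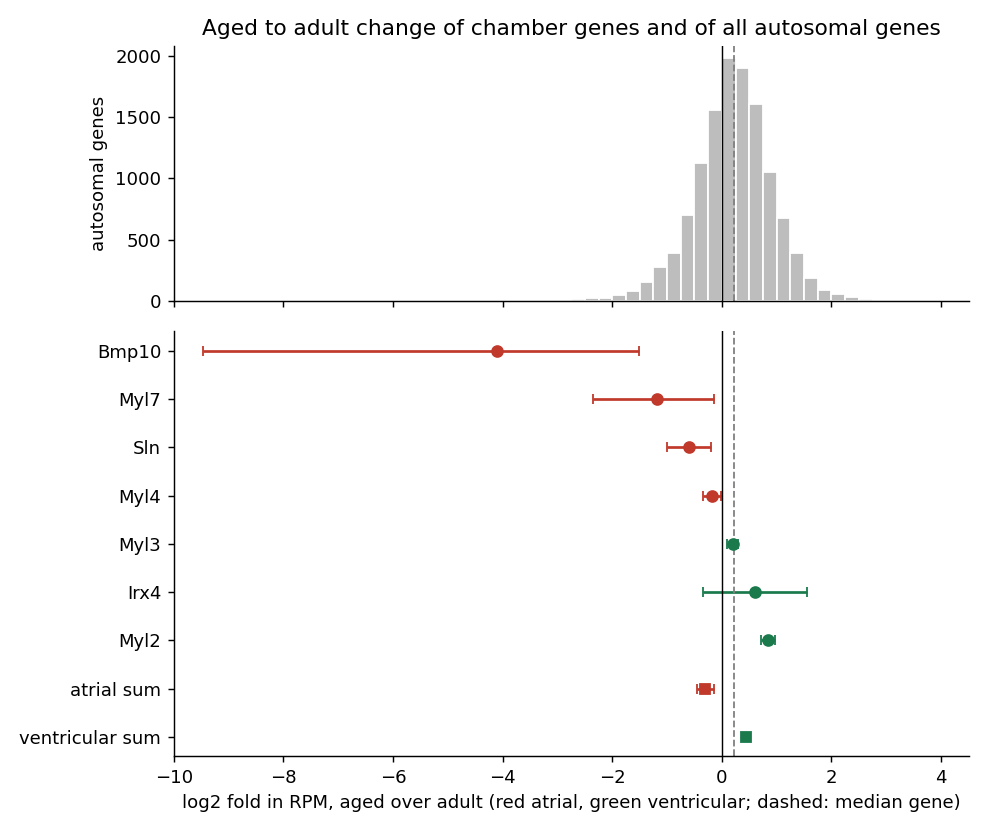
Upper panel: number of autosomal genes (20 or more reads in both libraries) by log2 fold in RPM, aged over adult. Lower panel: log2 folds of the 7 genes and of the atrial and ventricular sums with exact conditional 95% intervals, against the median gene at 0.22 (dashed); the atrial genes lie left of 0 and the ventricular genes right of it, except that on other scales Myl4 reaches 0.02 and Myl3 -0.02.

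Summed over the genes of a chamber, atrial reads numbered 1145 in the adult heart and 554 in the aged heart, or 117 RPM (111–124) and 95.4 RPM (87.6–104). The aged to adult ratio of the atrial sum was 0.812 (0.733–0.900). Ventricular reads numbered 3234 and 2606, or 332 RPM (320–343) and 449 RPM (432–466), with a ratio of 1.35 (1.28–1.42). The atrial share of all chamber gene reads, which needs no scale, was 26.1% (24.9–27.5) in the adult library against 17.5% (16.2–18.9) in the aged one. The atrial to ventricular read ratio was therefore 0.600 times the adult value in the aged library (0.535–0.674). The size of the share and of the ratio depends on the length and usable SNPs of each gene. They are thus no measure of chamber composition, and only their difference between the libraries is read.

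Single genes weigh unequally in these sums. Myl4 supplied most atrial reads, and without it the log2 of the aged to adult change in the atrial to ventricular ratio was -1.28 in place of -0.74. Without Myl2 it was -0.50 and without Myl3 -1.14. Giving each gene the same weight, the mean log2 fold was -1.52 for the atrial genes, -0.65 without Bmp10, and 0.55 for the ventricular genes.

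Pairs of genes with the same role gave the same direction. For the regulatory light chains, Myl7 over Myl2 was 0.0377 in the adult heart and 0.00923 in the aged heart, an aged to adult ratio of 0.245 (0.108–0.505). For the essential light chains, Myl4 over Myl3 was 0.406 and 0.313, a ratio of 0.771 (0.676–0.880). The regulatory pair thus lay further from 1 than the essential pair, with intervals that do not overlap. For the inhibitors of the calcium pump, Sln over Pln (phospholamban, abundant in ventricles) was 0.0290 and 0.0184, a ratio of 0.634 (0.474–0.839).

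Some genes of one chamber did not keep a fixed ratio to each other, while most pairs had intervals that include no change. Among the ventricular genes, Myl3 over Myl2 was 2.18 in the adult library against 1.39 in the aged one, a ratio of 0.636 (0.570–0.709). Among the atrial genes, Bmp10 over Sln gave an aged to adult ratio of 0.0876 (0.00212–0.552), which rests on 1 aged Bmp10 read. For Sln over Myl4 the ratio was 0.748 (0.549–1.01), for Myl7 over Myl4 0.500 (0.220–1.03) and for Myl7 over Sln 0.669 (0.282–1.46), and these 3 intervals include no change. So did those of Bmp10 over Myl7, 0.131 (0.00292–1.04), Irx4 over Myl2, 0.847 (0.436–1.64), and Irx4 over Myl3, 1.33 (0.687–2.57).

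**Figure D3:**
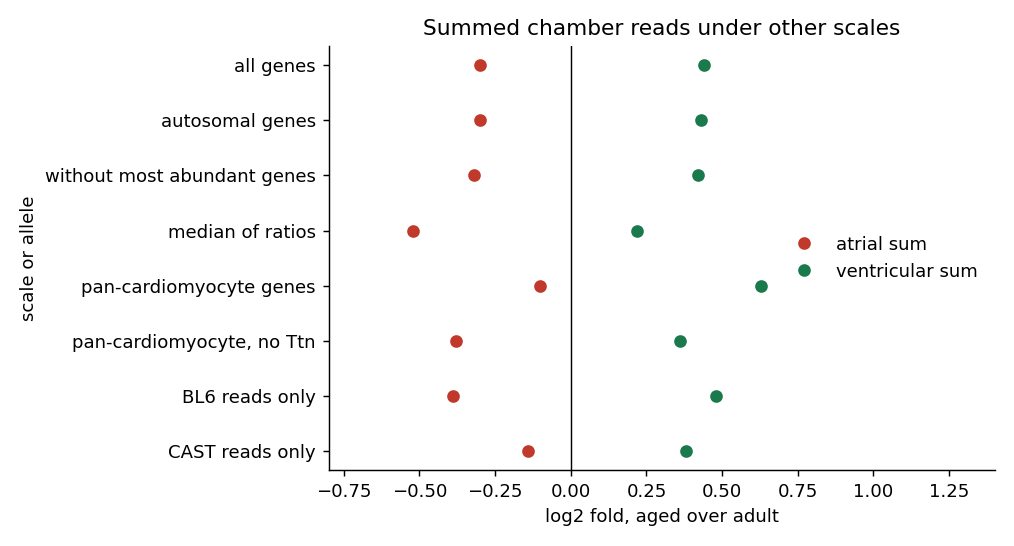
Log2 fold, aged over adult, of the summed atrial (red) and ventricular (green) reads under 6 scales and with the reads of 1 allele only. The atrial sum runs from -0.52 (median of ratios) to -0.10 (pan-cardiomyocyte genes) and the ventricular sum from 0.22 to 0.63 on the same scales.

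The direction of both sums was the same on every scale tried, but their size was not. The median of ratios, which sets the median gene to no change, gave -0.52 for the atrial and 0.22 for the ventricular sum. Scaling to 9 pan-cardiomyocyte genes, which puts the median gene at 0.42, gave -0.10 and 0.63. Relative to the median gene, the atrial sum lay lower and the ventricular sum higher, an order that a change of scale cannot alter. For the ventricular sum this rests on Myl2. Without Myl2 its log2 fold in RPM was 0.20, against 0.22 for the median gene. The 2 sums differ by the same amount on every scale, because a scale moves both alike.

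Both parental alleles were measured, and most members lay towards BL6. Myl4 had an allelic ratio of 0.656 (0.624–0.687) in the adult library, from 587 BL6 and 308 CAST reads, and of 0.607 (0.561–0.652) in the aged library, from 286 and 185. Both intervals lay above the autosomal share. The aged value was lower by 0.0486, with an interval from -0.00485 to 0.103 that includes no change.

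Myl2 had an allelic ratio of 0.612 (0.582–0.643) in the adult library, from 618 BL6 and 391 CAST reads, and of 0.588 (0.558–0.618) in the aged, from 637 and 446. It too lay above the autosomal share at both ages, and the difference of 0.0243 had an interval from -0.0177 to 0.0661.

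Myl3 lay near the autosomal share, with an allelic ratio of 0.517 (0.496–0.539) in the adult heart and 0.549 (0.523–0.574) in the aged heart. The ventricular light chain genes thus differed from each other in allelic ratio in the adult library, with intervals that do not overlap.

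Sln had an allelic ratio of 0.650 (0.576–0.719) in the adult library against 0.625 (0.503–0.736) in the aged one. Only the adult interval lay above the autosomal share. Bmp10 had 24 BL6 against 5 CAST reads in the adult heart, an allelic ratio of 0.828 (0.642–0.942), the highest of the members. Its single aged read came from BL6 and gives no usable ratio.

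Myl7 had 16 BL6 against 22 CAST reads in the adult heart, an allelic ratio of 0.421 (0.263–0.592), and 7 and 3 in the aged, an allelic ratio of 0.700 (0.348–0.933). Irx4 had an allelic ratio of 0.636 (0.407–0.828) in the adult heart and 0.700 (0.457–0.881) in the aged heart. These intervals are wide and include the autosomal share.

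Counted over the members, the allelic ratio lay 0.1 or more from the autosomal share for 5 of 7 in the adult library (Myl7, Myl4, Sln, Bmp10 and Irx4), against 33.7% of autosomal genes with 20 or more reads. In the aged library it did so for 1 of 5 (Irx4), against 38.2%. The exact interval lay apart from the share for 4 of 7 in the adult library (Myl4, Sln, Bmp10 and Myl2), against 43.7%, and for 2 of 5 in the aged (Myl4 and Myl2), against 45.1%. All of these were above the share, where 22.7% of adult and 22.4% of aged genes had their interval. The allelic ratio differed by 0.1 or more between the ages for 0 of 5 members with the minimum in both libraries, against 28.1%. That share includes genes near 20 reads, whose ratios vary more by counting error, while Myl4, Myl2 and Myl3 had 471 or more reads. The count is thus not read as stability. Myl7, short of the minimum, differed by -0.279 (adult minus aged), with an interval from -0.518 to 0.0625.

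**Figure D4:**
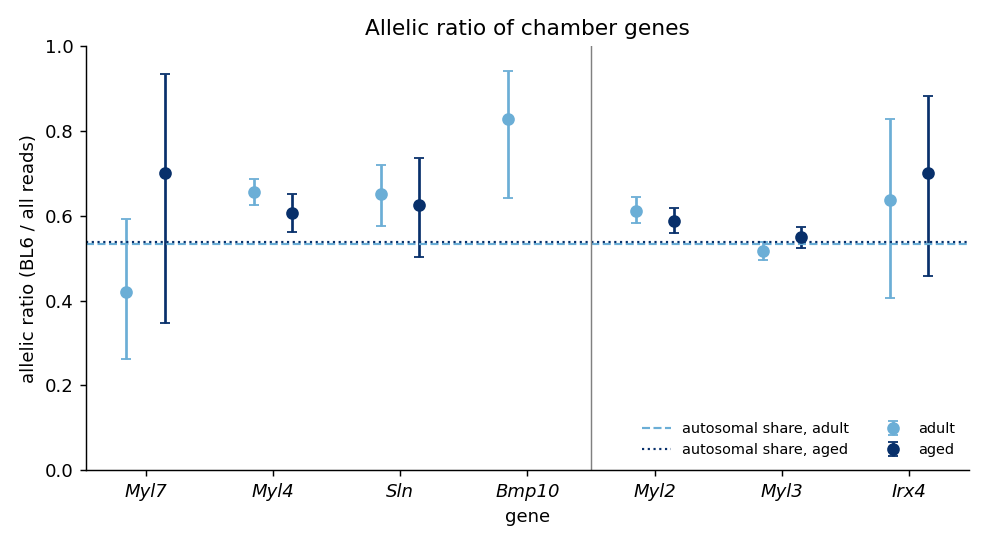
Allelic ratio (BL6 reads over all SNP-overlapping reads) of the chamber genes in the adult (light blue) and aged (dark blue) library with Clopper-Pearson 95% intervals; horizontal lines are the BL6 share of autosomal reads (0.534 and 0.538). Myl4 and Myl2 lie above the lines at both ages, and the single aged read of Bmp10 is left out.

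Each allele was also read on its own. For Myl4, the aged to adult ratio of scaled reads was 0.818 (0.708–0.944) for BL6 and 1.01 (0.836–1.21) for CAST. For Sln the ratios were 0.635 (BL6) and 0.708 (CAST), and for Myl2 1.73 and 1.92. For Myl7 they were 0.735 (0.256–1.89) and 0.229 (0.0439–0.762), from 16 and 22 adult reads. The BL6 and CAST intervals overlapped for Myl4 and Myl7, and the change in allelic ratio of the atrial sum, 0.0396 (adult minus aged), had an interval from -0.00898 to 0.0889, so no difference between the alleles was shown.

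Other genes known for atrial enrichment were read beside the members. Of 12, 8 reached the minimum in both libraries: 1 was lower by 1.5-fold or more (Kcnj3), 1 higher (Nr2f2) and 6 lay between, with a median log2 fold of -0.25 against 0.22 for all genes. Kcnj3, which encodes a subunit of the acetylcholine-gated potassium channel of atrial and nodal cells, had 31650 adult and 2616 aged reads, or 3247 and 451 RPM. Its ratio of 0.139 (0.133–0.144) ranked 14 from the lowest of 12390 genes. Nppa, the gene of atrial natriuretic peptide, stood at 81.7 and 66.8 RPM, a ratio of 0.818 (0.723–0.925) near that of the atrial sum. Cacna1d, a calcium channel gene, had a ratio of 0.859 (0.777–0.949). The rest of the genes between the thresholds, named after their values were seen, went both ways. Mybphl (0.675, 0.506–0.893) and Kcnj5 (0.715, 0.592–0.861) were lower. Dkk3 (1.42, 1.23–1.64) was higher, and Stard10 (1.23, 0.839–1.80) had an interval that includes no change. Nr2f2, a transcription factor gene of atrial myocytes that is also expressed in veins and stroma, was higher, at 29.4 and 51.7 RPM. Kcnj3 alone set the sum of this list: the aged to adult ratio was 0.218 (0.212–0.225) with it and 0.979 (0.925–1.04) without it, a comparison made after its value was seen.

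Of 8 other genes known for ventricular enrichment, 6 reached the minimum, of which 3 were higher, 2 lower and 1 between, with a median log2 fold of 0.34, near the 0.22 of all genes. Fhl2, a LIM domain gene, was at 2473 and 4207 RPM, a ratio of 1.70 (1.67–1.73). The transcription factor gene Hey2 had 114 reads in each library, a ratio of 1.68 (1.28–2.20), and Myh7, the slow myosin heavy chain gene, had a ratio of 1.54 (1.49–1.59). In the other direction lay Kcnj2, a potassium channel gene, with a ratio of 0.357 (0.239–0.519) and Kcnip2, which encodes a protein that binds potassium channels, with 0.626 (0.553–0.708). Pln, with 647 and 675 RPM, had a ratio of 1.04 (1.00–1.09).

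Genes of all cardiomyocytes set the frame for both chambers. All 9 on the list reached the minimum, with a median log2 fold of 0.20 near that of all genes, and 0 were higher and 2 lower by the fold, namely Ttn (titin) at 11849 and 6872 RPM and Rbm20, the regulator of its splicing, at 3377 and 2121 RPM. Ryr2, the calcium release channel gene, had a ratio of 1.15 (1.14–1.16). Their summed level was 30845 RPM in the adult library against 26913 RPM in the aged one, a ratio of 0.873 (0.867–0.878). Ttn decided that direction: without it the sum was at 18996 and 20041 RPM, a ratio of 1.06 (1.05–1.06), a comparison made after the values were seen. Myh6, the fast myosin heavy chain gene of both chambers, had a ratio of 1.15 (1.12–1.17), and Actc1, cardiac actin, one of 4.11 (3.95–4.28).

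Of 9 genes listed for other myosin light chains and their kinase, 6 reached the minimum, of which 2 were higher, 1 lower and 3 between. Myl6 and Myl9, forms of non-muscle and smooth muscle cells, were higher, with ratios of 3.12 (2.58–3.80) and 3.21 (2.09–5.01). Mylk3, the cardiac kinase that phosphorylates the regulatory light chain, was lower, at 641 and 284 RPM, and Myl12b lay between with a ratio of 1.48 (1.24–1.76). Myl1, named after its values were seen, fell short of the minimum with 90 adult and 15 aged reads. None of the 5 other Iroquois genes reached it, their reads summing to 44 and 42, with Irx5 at 17 and 3 and Irx1 at 11 and 15.

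The partners of the 2 non-myosin atrial members were given by their own list. The calcium pump gene Atp2a2, the target of sarcolipin, had a ratio of 1.11 (1.09–1.13), and Pln is given above. Mrln, which encodes another small inhibitor of the pump, had 18 and 11 reads. Of 6 genes listed as receptors and partners of BMP10, 4 reached the minimum: Bmpr2, with a ratio of 1.65 (1.56–1.74), Eng, with 1.86 (1.34–2.57), and the transcription factor gene Tbx20, at 385 and 735 RPM, were higher by the fold, and Bmpr1a, with 1.14 (1.09–1.19), lay between.

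**Figure D5:**
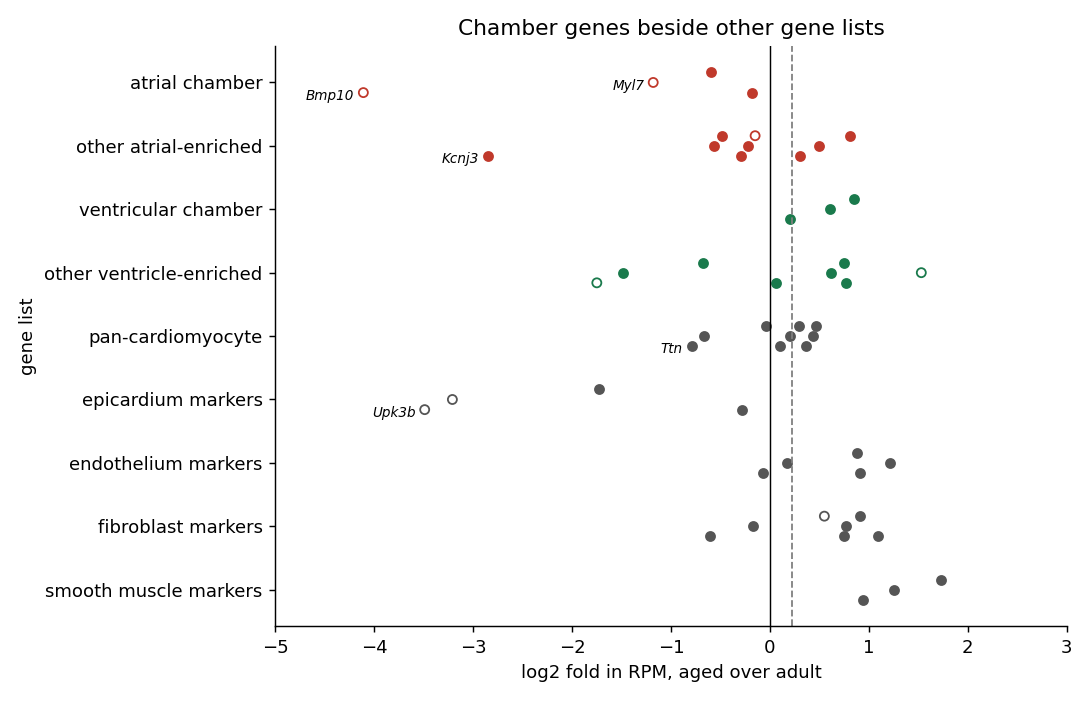
Log2 fold in RPM, aged over adult, of single genes in the chamber lists (atrial red, ventricular green) and in lists of other cells (grey); filled points have 20 or more reads in both libraries, open points fewer, and the dashed line is the median gene. Bmp10 lies lowest at -4.11, and Kcnj3 (-2.85) and the epicardium markers Upk3b (-3.49), Msln (-3.21) and Wt1 (-1.73) also lie low. The epicardium marker Tbx18 (-0.28) lies nearer the median, and all 3 smooth muscle markers lie right of the median.

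Markers of other cells in the pool differed between the libraries as well, and their part in the chamber values was not tested. Smooth muscle markers (3 of 3 listed) stood at 92.3 RPM in the adult heart and 280 RPM in the aged heart, endothelial markers (5 of 5) at 338 and 620 RPM, and fibroblast markers (7 of 7) at 657 and 1043 RPM. Single markers did not all follow these sums. In endothelium Vwf had a ratio of 0.953 (0.791–1.15) and Cdh5 one of 1.12 (0.918–1.37). Most fibroblast reads were of Dcn (4492 adult and 4486 aged), and the collagen genes Col3a1 and Col1a2 had ratios of 0.654 (0.547–0.778) and 0.888 (0.750–1.05). Pericyte markers (3 of 4, Kcnj8 at 0) stood at 87.1 and 154 RPM and macrophage markers (4 of 4) at 270 and 429 RPM. The pericyte marker Abcc9 did not follow its sum, with a ratio of 0.853 (0.681–1.06). Epicardial markers (4 of 4), of the layer that covers both chambers, lay lower, at 66.1 and 27.6 RPM. Upk3b, like the other single markers in this paragraph named after its values were seen, had 94 adult and 5 aged reads. Wt1 had a ratio of 0.302 (0.225–0.399), and Tbx18 one of 0.826 (0.638–1.06) that includes no change. Endocardial markers (2 of 2) stood at 229 and 195 RPM, with Npr3 lower and Nfatc1 higher, and adipocyte markers (3 of 3) at 21.9 and 14.5 RPM. Conduction markers (6 of 6) stood at 12.3 and 17.9 RPM, of which Tbx3 had 21 adult and 57 aged reads. Cacna2d2 went the other way, with 75 and 30 reads and a ratio of 0.672 (0.424–1.04). The remaining conduction markers had at most 9 reads in a library. Skeletal muscle markers (4 of 7) stood at 3.80 and 2.93 RPM with Myh1, Myh2 and Myh4 at 0, and lung epithelium markers (2 of 3, Sftpc at 0) at 2.77 and 1.03 RPM.

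The genes nearest in fold to each pattern were many, so likeness over 2 libraries singles out none. For the atrial sum, 593 of 7016 genes with 100 or more reads in both libraries lay within 0.1 of its log2 fold, the nearest being Pja2, Rad50 and Tmcc3. For the ventricular sum 954 did, led by Ywhag, Prkaa1 and Sarnp. The fold of Myl7 was shared by 94 genes, led by Hadha, Map3k5 and Pcmtd2, and that of Myl2 by 493, led by Casc3, Cisd1 and Zfp809.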

How the data were processed

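Single nuclei of 1 adult and 1 aged heart were sequenced after sorting for DNA content. The authors aligned reads with Cell Ranger 7.1.0 (the submitters' processing notes also name Seurat 5.1.0), split alignments by nucleus with sinto, pooled nuclei with a BL6 Xa and ran Allelome.PRO2 with RefSeq genes of GRCm38. The deposited values are, per gene, counts of BL6, CAST and all SNP-overlapping reads, not normalized; the allelic ratio, deposited as a fraction rounded to 2 decimals; and an allelic score, deposited by the authors and not used here. Removal of background RNA (CellBender) and of doublets (DoubletFinder) is described for the expression matrices only, whether the pooled nuclei had passed it is not given in the sources used here, and collapsing of duplicate reads is not given in the sources used here, so intervals treat reads as independent. File name and labels disagree on the aged mouse's weeks, and the labels were followed.

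Counts were divided by the library's total of SNP-overlapping reads (RPM), and allelic ratios were computed from the counts. Intervals came from scipy 1.17.1 and statsmodels 0.14.6 (Python 3.11.15), and were tested on simulated data. With 1 library per age no test was run. Deposited starts count from 0, and 1 was added: 15306 of 23061 genes matched by symbol then had the RefSeq start, against 224 as deposited. Genes were counted with 20 or more reads in both libraries, a fold of 1.5 in RPM and an allelic ratio change of 0.1. All members were named, as were genes of the context lists (not of the cell type marker lists) past the fold and up to 3 of each with the most reads. For likeness, the 3 autosomal genes outside the lists nearest in log2 fold were named. The members and lists were chosen with earlier results of these data known. Other scales, alleles, minimums and thresholds were tried.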

Additional observations from a re-analysis of the deposited data

How the results depend on the processing

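The point value of the atrial sum stayed lower and that of the ventricular sum higher in the aged library under every scale, allele and omission tried. With CAST reads the atrial sum had a ratio of 0.905 (0.763–1.07), an interval that includes no change. No interval is given for the other scales. The atrial to ventricular ratio, which no scale can change, stayed lower under every allele and omission tried. In log2 folds, the median of ratios gave -0.52 (atrial sum), 0.22 (ventricular sum) and -0.02 (Myl3, reversed); the pan-cardiomyocyte scale -0.10, 0.63 and 0.02 (Myl4, reversed), and 0.36 for the ventricular sum without Ttn. CAST reads alone gave -0.14 (atrial sum), -0.52 (ratio) and 0.01 (Myl4, reversed); Bmp10 had no aged CAST read and no such value. The atrial sum was -0.84 without Myl4, and the ventricular sum 0.20 without Myl2 (the median gene being at 0.22) and 0.84 without Myl3. The ratio was -1.28 without Myl4, -0.50 without Myl2, -1.14 without Myl3 and -2.07 from equally weighted genes. Chosen after seeing the data, it was -1.20 from equally weighted genes without Bmp10 and -1.04 without Myl4 and Myl2, which overlap other genes. Of 48 single-gene folds under alternatives, 40 stayed within their counting interval. The count says little for Myl7, Bmp10 and Irx4, whose intervals are wide. Scaling to autosomal genes or without the most abundant genes could hardly move any fold. The alternatives for single-gene allelic ratios, a rounded ratio or a nearly equal reference, could hardly move them.

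Members lower by the fold numbered 1, but 2 at a minimum of 10 reads, 0 at 100, 0 at a fold of 2, and, chosen after seeing the data, 3 with the minimum in either library and 2 with 40 reads summed over both. Members higher numbered 2, but 1 at minimums of 50 and 100 and 0 at a fold of 2, where 11.6% of genes were higher and 5.17% lower. An allelic ratio change of 0.05 held for 54.6% of genes and 1 member, and one of 0.2 for 6.98%. With a distance of 0.2 from the autosomal share, 1 adult and 0 aged members counted. The share of all genes at that distance was not computed, so nothing is read from these counts. With intervals apart, 2 aged members counted, against 45.1% of genes. No paired analysis was possible because each age has 1 library. Depth limits Myl7, Bmp10 and Irx4, with 38 reads or fewer in a library.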
